A study of Homo sapiens with 24 samples.

Results

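The genes described here are YAP1 and WWTR1, which encode the co-activators YAP and TAZ, their DNA-binding partners TEAD1, TEAD2, TEAD3 and TEAD4, 3 genes widely used as readouts of the pair (CYR61, now named CCN1, CTGF, now named CCN2, and AMOTL2), and AJUBA, a LIM-domain protein that acts on the pathway's kinases. They were taken by symbol, 10 of the 60564 rows of an RNA sequencing table, by a rule that used no measured value. The genes were chosen with earlier results of these data known. The table covers 24 libraries of the human neuroblastoma lines SK-N-BE(2), with amplified MYCN, and SH-SY5Y, without it. In each line, a lentivirus carried either short hairpin RNA against NDUFS6 (knockdown) or the full-length coding sequence of NDUFS6 (overexpression), and each of these constructs had an empty vector virus of its own as control. NDUFS6 encodes a subunit of mitochondrial complex I. All 8 groups, the controls included, went through infection and puromycin selection, and each group has 3 libraries. The lines are stable populations, and neither the hairpin sequence nor whether the 3 libraries of a group came from separate infections is given in the sources used here. The p-values therefore cover only library-to-library spread, possibly technical.

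YAP and TAZ do not bind DNA themselves. When the Hippo kinases (MST1 and MST2, then LATS1 and LATS2) are inactive, they enter the nucleus, bind a TEAD protein and switch on genes of matrix, adhesion and growth; when the kinases are active, YAP and TAZ are phosphorylated and held in the cytoplasm or degraded. Transcript levels therefore report how much of each component is made, and the target genes are the closer readout of activity. In neuroblastoma, YAP is known as a gene of the mesenchymal rather than the adrenergic cell state.

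The values are FPKM, fragments scaled to gene length and library size, so levels of different genes can be set side by side. Read depth is unknown. Between 12607 and 14018 genes reached 1 FPKM in a library. NDUFS6 itself followed its labels: on the log2(FPKM + 1) scale the knockdown changed it by -2.38 in SK-N-BE(2) cells and -1.33 in SH-SY5Y cells, and the overexpression by 0.39 and 4.13 (limma adjusted p at most 0.0170). The overexpression libraries of SK-N-BE(2) held only 14.9 to 18.9 FPKM of NDUFS6 against 11.9 to 13.9 in their control, while those of SH-SY5Y held 199.2 to 213.7 FPKM. Of 10 adrenergic neuroblastoma markers, 9 or 10 had a mean of at least 1 FPKM in every group. TH was near 0 in all SH-SY5Y groups. It was listed at 0 in all 3 knockdown libraries and was at 0.112 to 0.278 FPKM in their control. With overexpression TH was at 0.0234 to 0.0653 FPKM, and at 0.0503 to 0.129 FPKM in the overexpression control. Because these are bulk samples, fewer cells with a transcript and less of it per cell cannot be told apart.

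Before the values, the promoters show what the DNA-binding partner could read. TEAD proteins bind the motif GGAATG, and AP-1, a FOS and JUN dimer that often sits beside TEAD, binds TGANTCA. The 250 bases before each annotated start were searched on both strands in the RefSeq promoters (GRCh38.p14), which matched 7 of the 10 genes with 11 start sites. TEAD1, TEAD4 and CYR61 had no entry there, so their promoters were not searched. CTGF carried GGAATG 3 times, at 169, 104 and 95 bases before its start. YAP1, AMOTL2 and AJUBA carried 1 match each, at 162, 69 and 59 bases. Of all 35116 RefSeq windows of that length, 11.9% held at least 1 match and 0.0826% held 3 or more. TGANTCA was in 0 of the 11 windows and in 6.57% of all. A match describes letters and is not a measured binding site. The CTGF promoter (chr6:131951374-131951622, minus strand) is shown because it holds the cluster, and 30 bases around the single match are shown for YAP1 (chr11:102110273-102110302, plus strand), AMOTL2 (chr3:134374499-134374528, minus strand, the second of its 2 listed starts) and AJUBA (chr14:22976884-22976913, minus strand, likewise). The AMOTL2 and AJUBA windows overlap annotated exons of their own gene. Capitals mark the motif, which reads CATTCC on the gene's own strand in AMOTL2.
CTGF: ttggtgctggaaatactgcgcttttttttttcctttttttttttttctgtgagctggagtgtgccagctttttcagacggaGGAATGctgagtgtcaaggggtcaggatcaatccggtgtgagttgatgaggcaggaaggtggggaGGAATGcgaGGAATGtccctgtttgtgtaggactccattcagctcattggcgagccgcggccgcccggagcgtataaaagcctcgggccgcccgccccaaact
YAP1: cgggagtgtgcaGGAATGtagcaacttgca
AMOTL2: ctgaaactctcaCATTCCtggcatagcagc
AJUBA: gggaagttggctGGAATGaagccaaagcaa

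The 2 co-activators were expressed in opposite proportion in the 2 lines. In the SH-SY5Y knockdown, YAP1 made up 87.3 ± 0.702% (SD, n = 3) of the summed YAP1 and WWTR1 FPKM, against 58.8 ± 0.557% in its control. In the SK-N-BE(2) knockdown it made up 8.83 ± 0.445%, against 37.7 ± 3.20% in its control. In the overexpression controls YAP1 made up 10.9 to 13.3% in SK-N-BE(2) and 60.2 to 61.9% in SH-SY5Y. The lower share in the SK-N-BE(2) knockdown was therefore a much smaller difference against that line's other control. The higher share in the SH-SY5Y knockdown was similar in size against either control. The summed level was 9.38 ± 0.409 FPKM in the SH-SY5Y knockdown and 6.52 ± 0.701 FPKM in the SK-N-BE(2) knockdown. The lowest sums were 0.950 ± 0.0971 FPKM in the SH-SY5Y overexpression and 0.830 ± 0.138 FPKM in its control.

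**Figure D1:**
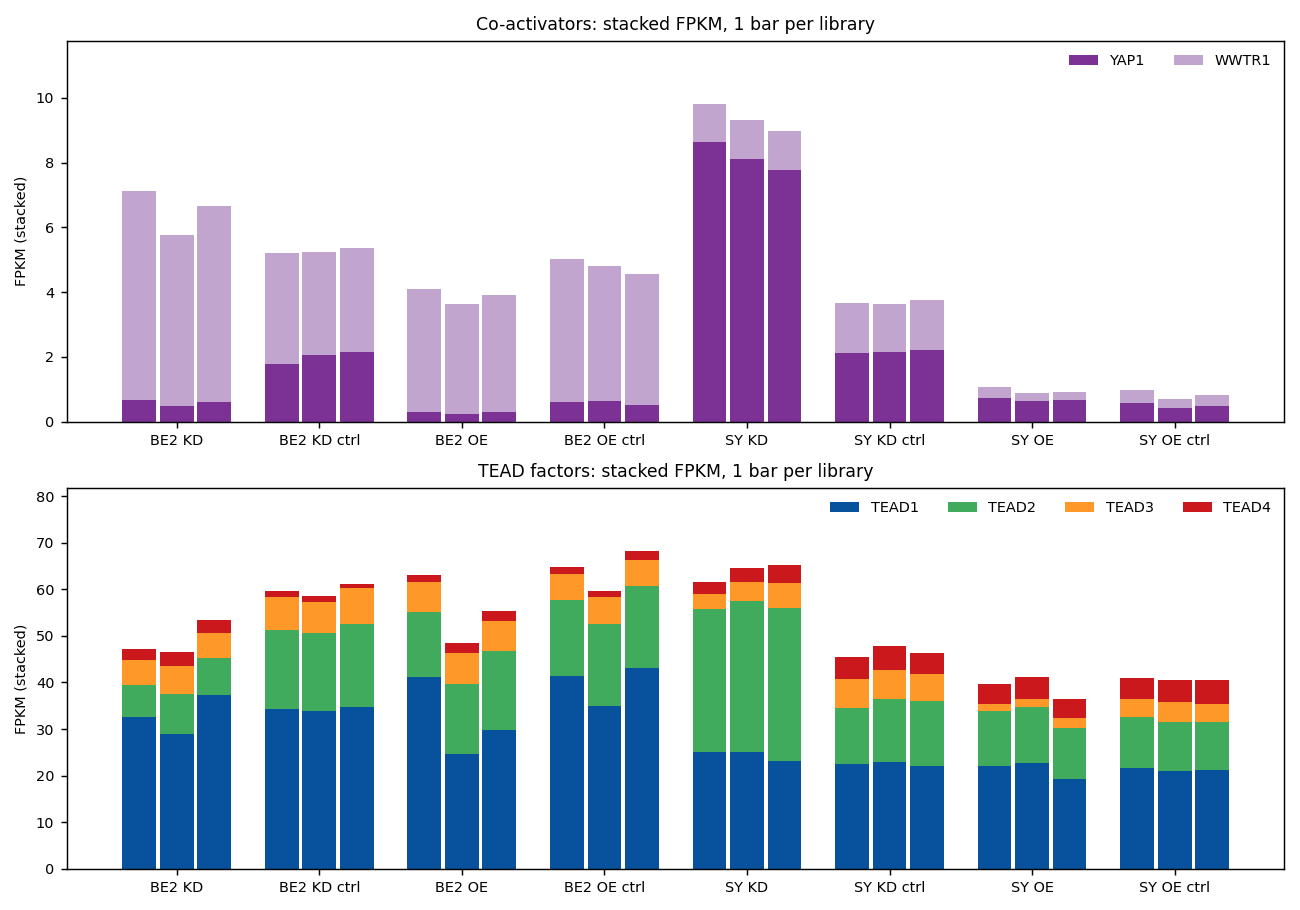
Stacked FPKM of YAP1 and WWTR1 (upper panel) and of the 4 TEAD genes (lower panel), 1 bar for each of the 24 libraries; BE2 is SK-N-BE(2), SY is SH-SY5Y, KD knockdown, OE overexpression and ctrl the empty vector control of that construct. YAP1 fills most of the bar in the SH-SY5Y knockdown (87.3%) and little of it in the SK-N-BE(2) knockdown (8.83%), and TEAD2 is 50.2% of the TEAD sum in the SH-SY5Y knockdown.

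YAP1 (ENSG00000137693, hg38 chr11:102110461-102233423) was at 8.63, 8.13 and 7.79 FPKM in the 3 SH-SY5Y knockdown libraries and at 2.13, 2.15 and 2.21 FPKM in their control. Every knockdown library lay above every control library, and the means differed 3.78-fold. YAP1 rose by 1.54 on the log2(FPKM + 1) scale (95% interval 1.40 to 1.67, limma adjusted p = 5.12e-14), the scale of every log2 change below. The other empty vector of SH-SY5Y, made for overexpression, held 0.588, 0.434 and 0.494 FPKM, below all the knockdown control libraries. Against it the knockdown value was 2.61, so the rise held against both controls with a size that depended on the control. The 2 empty vector groups of SH-SY5Y differed from each other by 1.07 (limma adjusted p = 7.55e-11).

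The same gene went the other way in SK-N-BE(2), against 1 of the 2 controls. YAP1 was at 0.657, 0.480 and 0.596 FPKM with knockdown and at 1.77, 2.05 and 2.13 FPKM in the knockdown control. All 3 knockdown libraries were lower, and YAP1 fell by 0.92 (limma adjusted p = 2.00e-10). The overexpression control held 0.614, 0.640 and 0.498 FPKM, a range that overlaps the knockdown libraries. Against that control the knockdown change was -0.01 (limma adjusted p = 0.950), and the 2 empty vector groups of SK-N-BE(2) themselves differed by 0.91 (limma adjusted p = 1.07e-09). With overexpression YAP1 was at 0.311, 0.232 and 0.304 FPKM, below both controls, and fell by 0.30 against its own (limma adjusted p = 0.00156), with -1.22 against the other. In SH-SY5Y overexpression it was at 0.736, 0.641 and 0.672 FPKM, a value of 0.16 against its own control (limma adjusted p = 0.0569) and -0.91 against the other. The knockdown change of YAP1 in SK-N-BE(2) minus that in SH-SY5Y was -2.46 (limma adjusted p = 1.24e-14), and -2.62 with the other controls. Averaged over both controls, the lines differed by -0.01 in YAP1 (95% interval -0.10 to 0.09).

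WWTR1 (ENSG00000018408, chr3:149517235-149736714) was the more abundant co-activator in all 4 groups of SK-N-BE(2). It was at 6.48, 5.27 and 6.07 FPKM with knockdown and at 3.44, 3.18 and 3.21 FPKM in the knockdown control, with 4.40, 4.17 and 4.06 FPKM in the overexpression control. The knockdown libraries lay above both controls. WWTR1 rose by 0.69 against its own control (1.81-fold, limma adjusted p = 5.07e-09) and by 0.41 against the other. In controls, WWTR1 was 1.37 higher in SK-N-BE(2) than in SH-SY5Y (limma adjusted p = 6.55e-17).

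In SH-SY5Y, WWTR1 was at 1.18, 1.2 and 1.21 FPKM with knockdown, at 1.53, 1.47 and 1.54 FPKM in the knockdown control and at 0.388, 0.267 and 0.318 FPKM in the overexpression control. The knockdown libraries sat between the 2 controls. So the change was -0.20 against the construct's own control (limma adjusted p = 0.00787) and 0.73 against the other (limma adjusted p = 1.35e-09). The difference between the lines in this change also turned its sign, 0.89 with own controls and -0.32 with the others. With overexpression WWTR1 was at 3.77, 3.39 and 3.62 FPKM in SK-N-BE(2), a change of -0.18 against its own control (limma adjusted p = 0.0264) and 0.10 against the other. Leaving out overexpression replicate 2 ended that call (-0.15, limma adjusted p = 0.129), as did leaving out overexpression replicate 3 (0.0590) or control replicate 1 (0.106). In SH-SY5Y overexpression it was at 0.322, 0.229 and 0.249 FPKM, among the lowest libraries of the set.

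**Figure D2:**
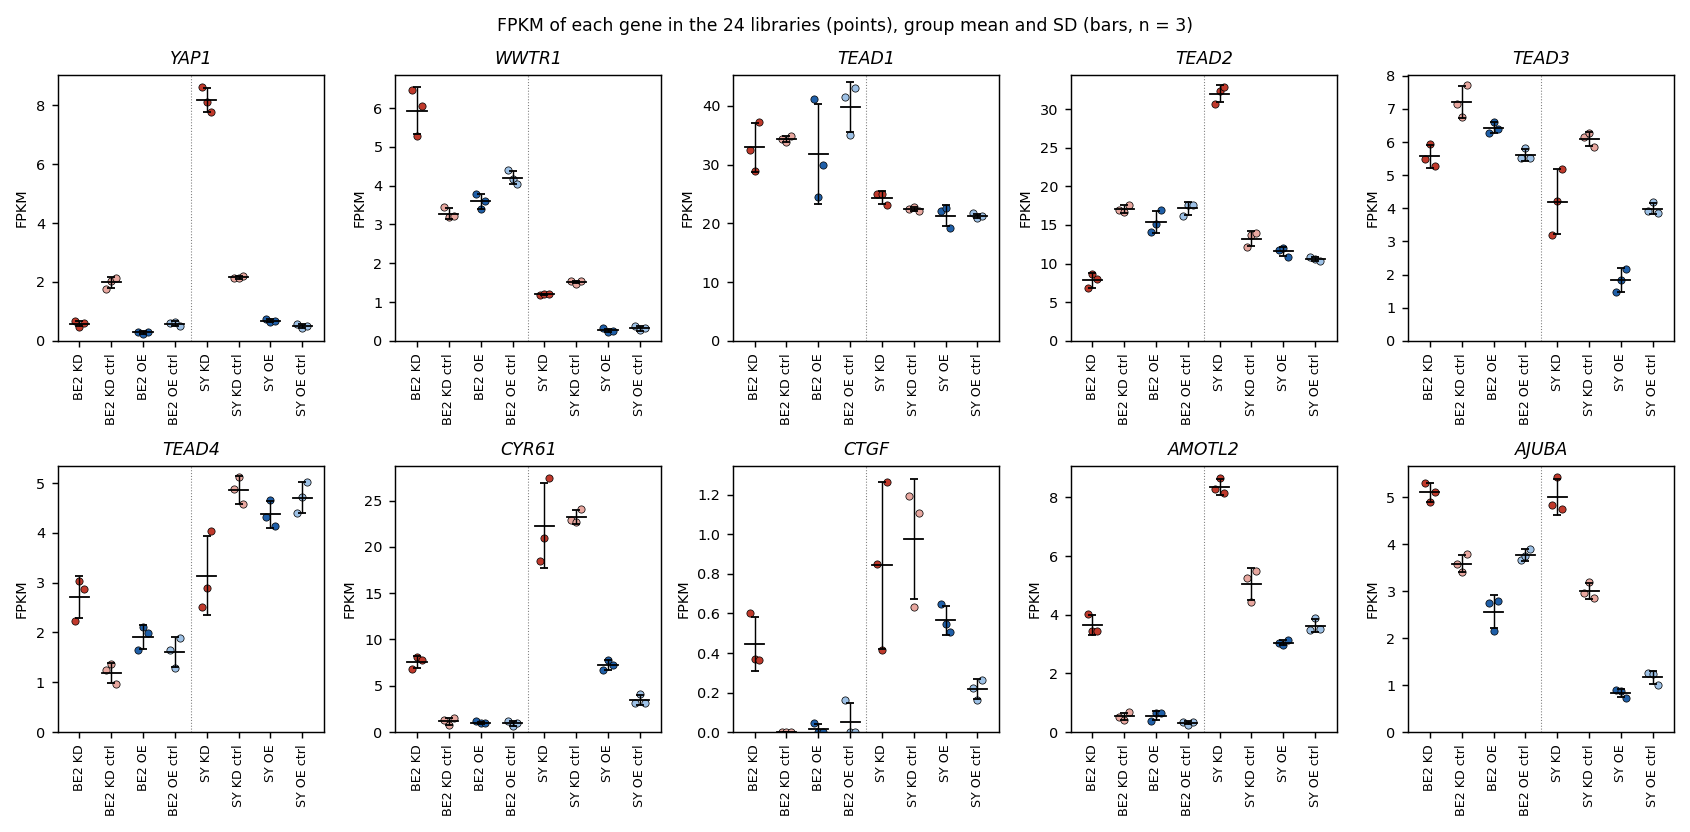
FPKM (linear axis) of the 10 genes in each of the 24 libraries (points), with the mean and SD of each group of 3 (bars); BE2 is SK-N-BE(2), SY is SH-SY5Y, KD knockdown, OE overexpression, ctrl the empty vector control. YAP1 stands at 7.79 to 8.63 FPKM in the SH-SY5Y knockdown and at most 2.21 elsewhere, and the 2 controls of SH-SY5Y differ in CYR61, CTGF, YAP1 and WWTR1.

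TEAD1 (ENSG00000187079, chr11:12674591-12944483) was the most abundant TEAD transcript in 7 of the 8 groups and had the smallest range of group means among the 10 genes. Group means lay between 21.3 and 39.8 FPKM, 1.87-fold apart. SK-N-BE(2) controls were 0.73 above SH-SY5Y controls (limma adjusted p = 1.81e-07). Knockdown values were -0.07 in SK-N-BE(2) (95% interval -0.32 to 0.19) and 0.12 in SH-SY5Y (-0.14 to 0.37), neither called. In SK-N-BE(2) overexpression, TEAD1 was at 41.1, 24.6 and 29.9 FPKM against 41.5, 35.0 and 43.1 FPKM in the control, and the groups overlap. The value of -0.34 was called (limma adjusted p = 0.0426). It was not called without overexpression replicate 2 (-0.17, limma adjusted p = 0.300), nor without overexpression replicate 3 (0.120), control replicate 1 (0.122) or control replicate 3 (0.157), nor against the other control (-0.14).

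TEAD2 (ENSG00000074219, chr19:49340595-49362457) had the largest knockdown changes among the TEAD genes, in opposite directions in the 2 lines and against either control. In SH-SY5Y it was at 30.7, 32.4 and 32.9 FPKM with knockdown, 12.1, 13.6 and 13.9 FPKM in the knockdown control and 10.9, 10.6 and 10.3 FPKM in the overexpression control. In SK-N-BE(2) it was at 6.82, 8.68 and 7.97 FPKM with knockdown, 16.9, 16.6 and 17.6 FPKM in the knockdown control and 16.2, 17.6 and 17.6 FPKM in the overexpression control. The SH-SY5Y knockdown libraries were the highest of all 24 and the SK-N-BE(2) knockdown libraries the lowest. TEAD2 rose by 1.22 in SH-SY5Y (2.42-fold, limma adjusted p = 1.2e-11; 1.51 against the other control) and in SK-N-BE(2) cells it fell by 1.04 (limma adjusted p = 1.91e-10; -1.05 against the other control). The difference between the lines was -2.26 (limma adjusted p = 3.02e-13; -2.56 with the other controls). TEAD2 thereby passed TEAD1 in all 3 SH-SY5Y knockdown libraries, where it made up 50.2 ± 0.200% of the summed TEAD FPKM, against 28.4 ± 1.70% in the control and 16.0 ± 2.26% in the SK-N-BE(2) knockdown. In GENCODE release 29, 10.7% of TEAD2's exon bases lie opposite exons of CD37, a gene at 1.22, 0.902 and 0.350 FPKM in the SH-SY5Y knockdown and 0.358, 0.463 and 0.231 FPKM in its control. CD37 was at 0.431, 0.402 and 0.710 FPKM in the SK-N-BE(2) knockdown and 1.35, 1.39 and 1.66 FPKM in its control, so its means moved with TEAD2 in both lines at a much lower level. Whether strand was used in counting is not stated, and the part of CD37 reads was not tested. Opposite-strand genes also cover 9.97% of YAP1 exon bases (AP000942.2, listed at 0 in all 24 libraries), 9.45% of WWTR1 (WWTR1-AS1, at most 0.179 FPKM) and 8.34% of CTGF (AL133346.1, listed at 0 in all 24). With overexpression, TEAD2 was not called in either line against its own control (-0.15 in SK-N-BE(2), 0.12 in SH-SY5Y).

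TEAD3 (ENSG00000007866, chr6:35473597-35497076) fell with NDUFS6 overexpression in SH-SY5Y against either control. Its libraries were at 1.47, 1.85 and 2.18 FPKM, against 3.93, 4.19 and 3.86 FPKM in the overexpression control and 6.15, 6.28 and 5.85 FPKM in the knockdown control. These 3 libraries were the lowest of all 24. The fall was 0.82 (limma adjusted p = 3.07e-06), and the value was -1.33 against the other control. In SK-N-BE(2) overexpression TEAD3 was at 0.17 against its own control and -0.14 against the other (neither called), and the difference between the lines was 0.99 (limma adjusted p = 2.26e-05). With knockdown, TEAD3 was called lower against the construct's own control in SK-N-BE(2) cells (-0.32, limma adjusted p = 0.00997) and in SH-SY5Y cells (-0.46, limma adjusted p = 0.000492). Neither call held against the other control, at -0.01 and 0.04. In SK-N-BE(2) that call was also lost when FPKM were rescaled to a fixed sum (-0.26, limma adjusted p = 0.0718).

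TEAD4 (ENSG00000197905, chr12:2959330-3040673) moved opposite to TEAD2 in each knockdown. In SK-N-BE(2) it was at 2.24, 3.03 and 2.88 FPKM with knockdown against 1.24, 1.36 and 0.958 FPKM, with 1.65, 1.29 and 1.90 FPKM in the other control. In SH-SY5Y it was at 2.50, 2.89 and 4.03 FPKM with knockdown against 4.88, 5.13 and 4.58 FPKM, with 4.40, 4.71 and 5.01 FPKM in the other control. The groups did not overlap against either control. In SK-N-BE(2) cells TEAD4 rose by 0.76 (limma adjusted p = 1.30e-05; 0.51 against the other control) and in SH-SY5Y cells it fell by 0.52 (limma adjusted p = 0.000773; -0.48). The lines differed by 1.28 in this change (limma adjusted p = 1.48e-06). In controls, SK-N-BE(2) minus SH-SY5Y was -1.28 for TEAD4, and the knockdown means of the 2 lines were closer, at 2.72 and 3.14 FPKM. Overexpression gave no call against the construct's own control in either line (0.16 and -0.09). Against the other control TEAD4 was called higher in SK-N-BE(2) overexpression (0.42, limma adjusted p = 0.00765) and was at -0.13, not called, in SH-SY5Y.

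Among the target genes, CYR61 (ENSG00000142871, chr1:85580761-85583962), a secreted matrix-associated protein, rose in the SK-N-BE(2) knockdown. Its libraries were at 6.86, 8.10 and 7.84 FPKM, against 1.27, 0.776 and 1.49 FPKM in the knockdown control and 1.16, 0.700 and 0.932 FPKM in the overexpression control. The 3 knockdown libraries were well above both controls, 6.45-fold and 8.16-fold in mean. CYR61 rose by 1.99 (95% interval 1.72 to 2.26, limma adjusted p = 8.29e-11), with 2.16 against the other control.

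In SH-SY5Y, the call on CYR61 turned with the empty vector used. It was at 18.5, 21.0 and 27.4 FPKM with knockdown, 22.9, 22.7 and 24.1 FPKM in the knockdown control, 6.74, 7.79 and 7.21 FPKM with overexpression and 3.12, 4.09 and 3.13 FPKM in the overexpression control. The knockdown and its control overlap, and both are above the other 2 groups. The knockdown change was -0.07 (95% interval -0.34 to 0.20) against its own control and 2.38 against the other. The overexpression change was 0.90 against its own control (2.10-fold, limma adjusted p = 2.37e-05) and -1.56 against the other, both called. The empty vector groups differed by 2.45 (95% interval 2.18 to 2.72, limma adjusted p = 1.44e-11), a larger value than that of either construct against its own control. The change with knockdown differed between the lines by 2.07 with own controls (limma adjusted p = 8.48e-09) and by -0.22 with the others (limma adjusted p = 0.327).

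CTGF (ENSG00000118523, chr6:131948176-131951373), a matricellular protein of the same family with the GGAATG cluster shown above, was low throughout. It reached 1 FPKM in 3 of 24 libraries and was listed at 0 in 7. In SK-N-BE(2) it was at 0.602, 0.370 and 0.364 FPKM with knockdown and listed at 0 in all 3 libraries of the knockdown control, while the overexpression control had 0.160, 0 and 0 FPKM. The knockdown libraries did not overlap either control, and the change was 0.53 (limma adjusted p = 0.00179), with 0.46 against the other control. On this scale a change of so low a gene is understated, and a fold is not given against a group at 0. In SH-SY5Y, CTGF was at 0.852, 0.415 and 1.26 FPKM with knockdown, 1.19, 0.631 and 1.11 FPKM in the knockdown control, 0.647, 0.544 and 0.507 FPKM with overexpression and 0.223, 0.162 and 0.262 FPKM in the overexpression control. The 4 groups had the same order of means as for CYR61, and the 2 empty vectors differed by 0.69 (limma adjusted p = 0.000302). The overexpression change was 0.36 against its own control (limma adjusted p = 0.0367) and -0.33 against the other. Leaving out any 1 of the 6 libraries of that comparison ended the call (0.33 to 0.39, limma adjusted p 0.0552 to 0.11).

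AMOTL2 (ENSG00000114019, chr3:134355874-134375479), a TEAD target whose angiomotin-family product binds YAP and holds it at cell junctions, was the target gene that rose in both knockdowns against both controls. In SK-N-BE(2) it was at 4.04, 3.45 and 3.44 FPKM with knockdown, 0.510, 0.429 and 0.674 FPKM in the knockdown control and 0.358, 0.258 and 0.356 FPKM in the overexpression control. In SH-SY5Y it was at 8.29, 8.65 and 8.14 FPKM with knockdown, 5.24, 4.45 and 5.48 FPKM in the knockdown control and 3.5, 3.89 and 3.5 FPKM in the overexpression control. Each knockdown group lay above both of its line's controls. The rise was 1.59 in SK-N-BE(2) (6.78-fold, limma adjusted p = 1.40e-12; 1.81 against the other control) and 0.63 in SH-SY5Y (1.65-fold, limma adjusted p = 9.91e-07; 1.02). It was larger in SK-N-BE(2) by 0.96 (limma adjusted p = 4.02e-07; 0.79 with the other controls), and in controls SK-N-BE(2) minus SH-SY5Y was -1.89. With overexpression AMOTL2 was called higher in SK-N-BE(2) (0.23, limma adjusted p = 0.0387), at 0.375, 0.639 and 0.643 FPKM. That call was lost against the other control (0.01) and without any of overexpression replicates 2 and 3 and control replicates 1, 2 and 3 (0.18 to 0.24, limma adjusted p 0.0613 to 0.164). In SH-SY5Y it was -0.19 (limma adjusted p = 0.0714) against its own control and -0.58 against the other.

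AJUBA (ENSG00000129474, chr14:22971174-22982642), which binds LATS kinases and restrains them, rose with knockdown and fell with overexpression in both lines, against both controls. In SK-N-BE(2) it was at 5.30, 4.90 and 5.13 FPKM with knockdown, 3.57, 3.42 and 3.79 FPKM in its control, 2.74, 2.16 and 2.79 FPKM with overexpression and 3.66, 3.75 and 3.91 FPKM in its control. In SH-SY5Y it was at 4.85, 5.44 and 4.74 FPKM with knockdown, 2.97, 3.19 and 2.86 FPKM in its control, 0.894, 0.876 and 0.734 FPKM with overexpression and 1.25, 1.24 and 0.996 FPKM in its control. Within each line, knockdown libraries were above and overexpression libraries below all 6 control libraries. The knockdown rise was 0.41 in SK-N-BE(2) (limma adjusted p = 4.04e-05; 0.36 against the other control) and 0.58 in SH-SY5Y (limma adjusted p = 4.48e-07; 1.47). The overexpression fall was 0.43 in SK-N-BE(2) (limma adjusted p = 0.000191; -0.37 against the other control) and 0.24 in SH-SY5Y (limma adjusted p = 0.0122; -1.13). The SH-SY5Y overexpression call was lost without overexpression replicate 3 (-0.20, limma adjusted p = 0.0629), control replicate 1 (-0.21, 0.0569) or control replicate 2 (-0.21, 0.0538). The difference between lines was not called for knockdown (-0.17, 95% interval -0.38 to 0.03) or for overexpression (-0.19, -0.39 to 0.02) with own controls. With the other controls it was -1.12 and 0.76, both called.

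**Figure D3:**
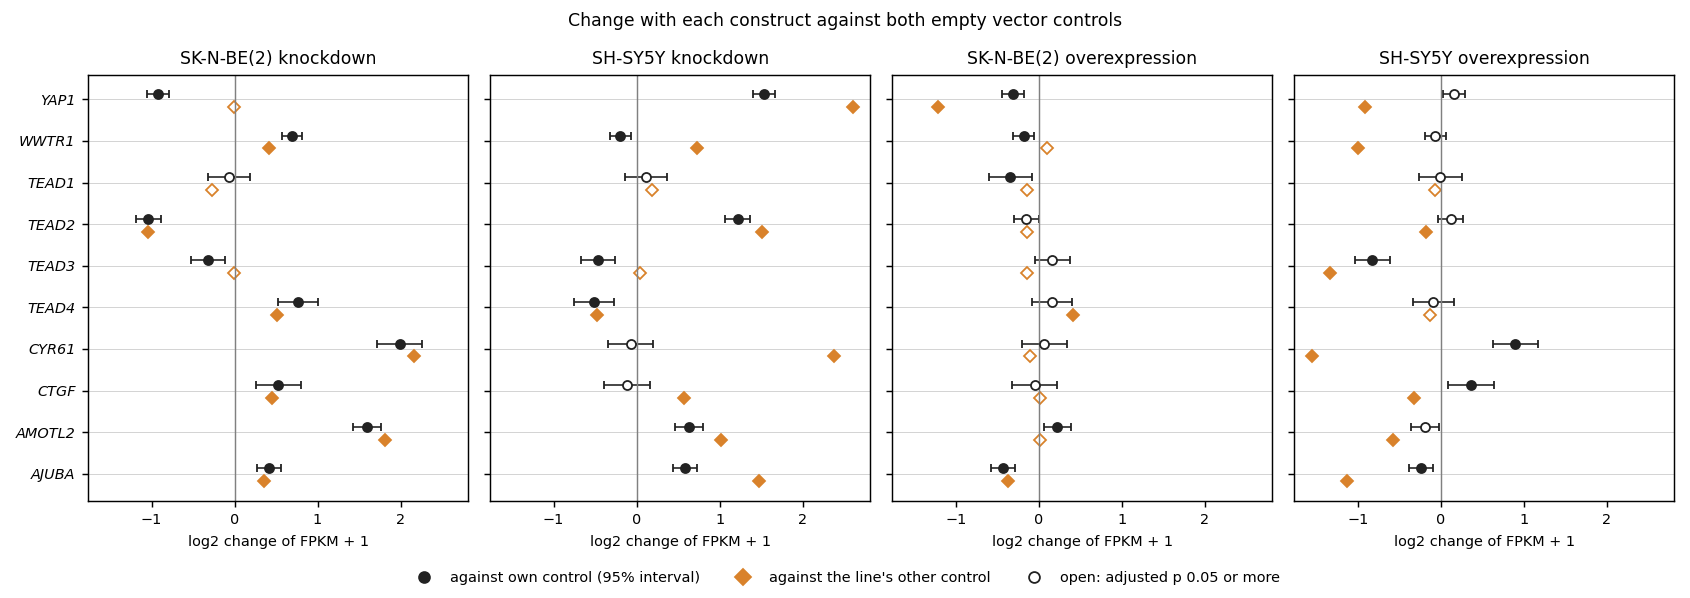
Log2 change of FPKM + 1 (x axis) of each of the 10 genes (rows) with each construct, against the construct's own empty vector (black circles, bars are 95% intervals) and against the line's other empty vector (orange diamonds, drawn without intervals); filled symbols passed the limma test and open ones did not. The 2 symbols of a gene lie far apart for YAP1 in the SK-N-BE(2) knockdown (-0.92 and -0.01) and for CYR61 in the SH-SY5Y knockdown (-0.07 and 2.38), and close for TEAD2 and CYR61 in the SK-N-BE(2) knockdown.

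Ordered by group mean, YAP1 ran from the SH-SY5Y knockdown (8.18 FPKM) through the 2 knockdown controls (2.16 in SH-SY5Y and 1.99 in SK-N-BE(2), overlapping libraries) and the SH-SY5Y overexpression (0.683) to the SK-N-BE(2) overexpression control, the SK-N-BE(2) knockdown and the SH-SY5Y overexpression control (0.584, 0.578 and 0.505, each overlapping the next), with the SK-N-BE(2) overexpression last (0.282). WWTR1 spanned 22.3-fold, from the SK-N-BE(2) knockdown to the SH-SY5Y overexpression. CYR61 spanned 24.9-fold, from the SH-SY5Y knockdown control to the SK-N-BE(2) overexpression control, and AMOTL2 25.8-fold, from the SH-SY5Y knockdown to that same control. TEAD2, TEAD3, TEAD4 and AJUBA spanned 4.09-fold, 3.93-fold, 4.1-fold and 6.12-fold. Of the 7 pairs of neighbours in each order, the libraries overlapped in 3 for YAP1 and TEAD3, 2 for WWTR1, TEAD2, AMOTL2 and AJUBA, 4 for CYR61 and 5 for TEAD1, TEAD4 and CTGF.

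Counted together, 9 of the 10 genes were called in the SK-N-BE(2) knockdown (6 higher, 3 lower), where 55.7% of all 15903 tested genes were called. In the SH-SY5Y knockdown 7 were called (4 higher, 3 lower), against 56% of all genes. In the overexpression comparisons 5 were called in SK-N-BE(2) (1 higher, 4 lower; 29.7% of all genes) and 4 in SH-SY5Y (2 higher, 2 lower; 32.6%). Without 1 library the former count was 2 (overexpression replicate 2 or control replicate 1) or 3 (overexpression replicate 3 or control replicate 3), and the latter 2 (overexpression replicate 3 or control replicate 2). Between the lines, 7 knockdown changes (55.8% of all genes) and 5 overexpression changes (36.8%) differed. The median change of the 10 was 0.47 in the SK-N-BE(2) knockdown and 0.02 in the SH-SY5Y knockdown, beside -0.01 in each over all genes tested. Against the other controls it was 0.38 and 0.87, beside -0.02 and -0.03.

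The 2 empty vector groups of a line share neither construct, yet 8 of the 10 genes were called between them in SH-SY5Y, all higher in the knockdown control (36.2% of all genes were called and 18.4% called higher). In SK-N-BE(2) 4 were called (34.5% of all genes), with YAP1, TEAD3 and AMOTL2 higher and WWTR1 lower in the knockdown control. That count was 2 without knockdown control replicate 3 or overexpression control replicate 1 or 3, through TEAD3 and AMOTL2. A stricter count, chosen after the values were seen, keeps only genes called the same way against both controls. It kept 6 higher and 1 lower in the SK-N-BE(2) knockdown (35.4% of all genes met it) and 4 higher and 1 lower in the SH-SY5Y knockdown (42.5%). The former are WWTR1, TEAD4, CYR61, CTGF, AMOTL2 and AJUBA, with TEAD2 lower; the latter are YAP1, TEAD2, AMOTL2 and AJUBA, with TEAD4 lower. In overexpression it kept YAP1 and AJUBA, both lower, in SK-N-BE(2) (14.3% of all genes) and TEAD3 and AJUBA, both lower, in SH-SY5Y (27%). In controls of the lines themselves, 9 of the 10 differed (77.3% of all genes), with WWTR1, TEAD1, TEAD2, TEAD3 and AJUBA higher in SK-N-BE(2) and CYR61, AMOTL2, TEAD4 and CTGF higher in SH-SY5Y.

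Markers of other cell states moved in the same libraries. Summed FPKM of 11 fibroblast and stroma markers was 294.6 to 306.2 in the SH-SY5Y knockdown, 150.4 to 155.3 in its control and 66.2 to 70.1 in the overexpression control, the same order as YAP1. The 10 adrenergic markers summed to 626.3 to 652.0, 857.8 to 864.6 and 1175 to 1211 FPKM in those groups, the reverse order. In the SK-N-BE(2) knockdown the adrenergic sum was 525.5 to 660.6 FPKM against 813.5 to 834.4 in its control, with 2 of the 10 higher (TH and CHGB) and 8 lower. None was higher and 9 were lower against the other control. Over all genes, 55.7% were called in this knockdown against its own control and 47.7% against the other. The stroma sum there was 175.9 to 204.1 against 161.2 to 167.8 FPKM, and 190.0 to 199.2 in the other control, which overlaps it. Of 10 stroma markers tested in it, COL3A1 (1.53) and COL1A1 (0.99) rose, DCN (-0.43) and PDGFRA (-0.82) fell and 6 were not called, with a median of -0.03. No stroma marker was at 0 in all 3 libraries of either knockdown group. In the SK-N-BE(2) knockdown, however, COL1A2, FAP and POSTN were near 0, at most 0.0150, 0.0136 and 0.102 FPKM. The immune sum was 8.98 to 11.8 FPKM in the SH-SY5Y knockdown and 2.02 to 2.77 in its control, mostly CD68 (8.59 to 11.6 in the knockdown), while LYZ and CD3E were listed at 0 in both. The part of these markers in the results above was not tested.

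In a signature of 19 other YAP and TAZ target genes, 16 were expressed enough to be tested. It gave 11 higher and 4 lower in the SK-N-BE(2) knockdown, where 55.7% of all genes were called. Against the other control, which called 47.7% of all genes, it gave 7 and 5. In the SH-SY5Y knockdown it gave 9 higher and 4 lower (56% of all genes called), and 14 and 1 against the other control (58.2% of all genes). IGFBP3, a secreted binder of insulin-like growth factors, led both: it was at 36.1 to 37.7 FPKM in the SK-N-BE(2) knockdown against 1.02 to 1.09 in its control, a rise of 4.21 (0.82 against the other control), and at 119.0 to 124.1 against 8.24 to 9.30 FPKM in SH-SY5Y, a rise of 3.63 (5.02). GADD45A, a DNA damage response gene, rose by 2.59 in the SK-N-BE(2) knockdown (1.75 against the other control), and MYOF, a membrane repair protein, by 1.34 (1.16). The largest fall was in NT5E, the cell surface enzyme CD73: 1.05 to 1.56 FPKM in the SK-N-BE(2) knockdown against 54.4 to 56.9 FPKM in its control, a change of -4.64 (-1.75 against the other control). FJX1 and CCDC80 also fell there (-1.23 and -0.80). In the SH-SY5Y knockdown, PTPN14 and NT5E rose (1.0 and 0.86), and TGFB2, CRIM1 and CCDC80 were lower against their own control (-1.30, -0.78 and -0.27) and higher against the other (0.47, 1.24 and 1.02). In overexpression the list gave 2 higher and 2 lower in SK-N-BE(2) (29.7% of all genes called) and 4 higher and 3 lower in SH-SY5Y (32.6%). Without overexpression replicate 1 the former counts were 3 and 4. Against the other controls the list gave 5 and 1 (40.3% of all genes) and 1 and 11 (55.4%). Its overexpression leaders in SH-SY5Y were IGFBP3 and ANKRD1, a cardiac ankyrin repeat protein, which rose by 1.44 and 1.06 against their own control and were at 0.05 and -0.19 against the other, neither called.

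**Figure D4:**
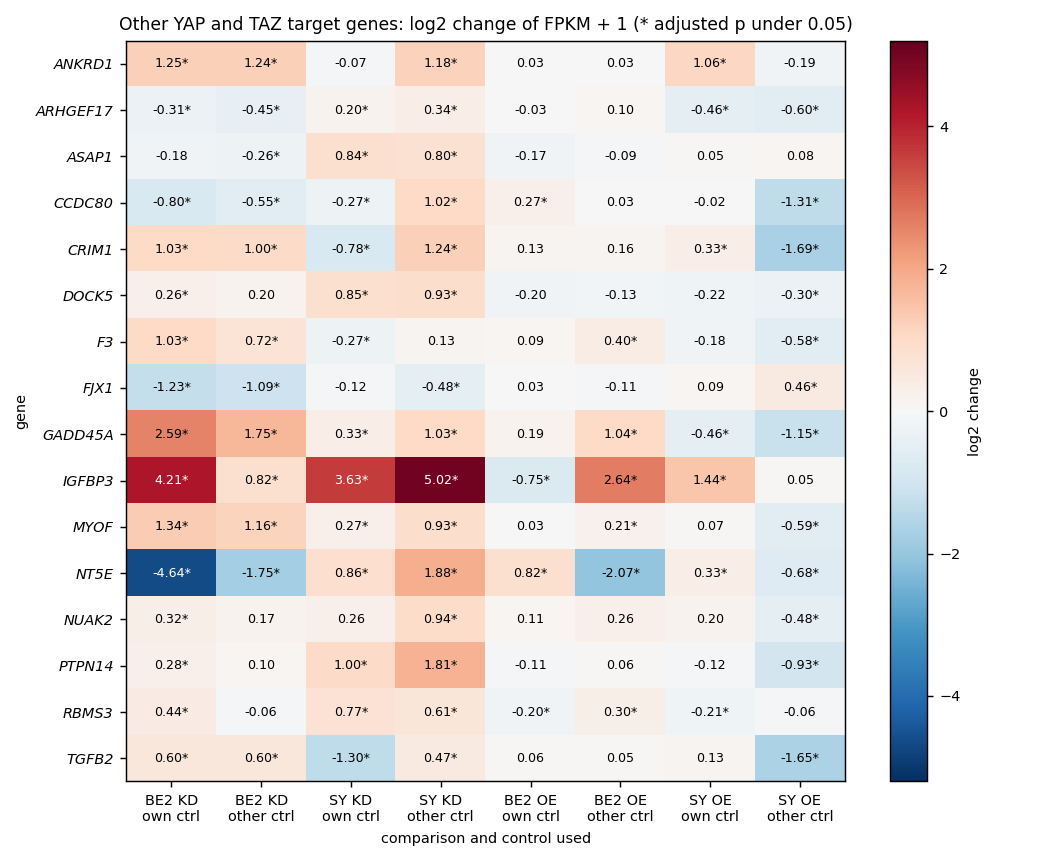
Log2 change of FPKM + 1 (colour and printed value) of the 16 tested genes of the target signature (rows) in the 4 construct comparisons, each against its own and the line's other empty vector (columns); an asterisk marks a limma adjusted p under 0.05. Values range from -4.64 for NT5E to 5.02 for IGFBP3. TGFB2, CRIM1, CCDC80, F3 and ANKRD1 change sign between the 2 controls in the SH-SY5Y knockdown.

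Of 21 tested upstream Hippo regulators, 5 were higher and 6 lower in the SK-N-BE(2) knockdown (8 and 5 with FPKM rescaled to a fixed sum; 3 and 8 against the other control), and 10 and 3 in the SH-SY5Y knockdown (12 and 1). Over all genes 55.7% and 56% were called in these knockdowns, and 47.7% and 58.2% against the other control. The SK-N-BE(2) overexpression gave 0 and 13 (16.8% of all genes were called lower), but 0 and 6 without overexpression replicate 2, 0 and 8 without control replicate 3 and 0 and 2 when only the groups compared were fitted. It gave 2 and 9 against the other control (40.3% of all genes called). The SH-SY5Y overexpression gave 4 and 2 (32.6% of all genes called), or 2 and 1 without overexpression replicate 3. Against the other control it gave 4 and 10 (55.4%). In the SH-SY5Y knockdown the leaders were the giant cadherin FAT4 (1.87; 8.51 to 10.3 FPKM against 1.77 to 2.0), PTPN14 (1.0, also in the target signature) and VGLL4, which competes with YAP for TEAD (0.89), and all 3 were also called higher against the other control (2.51, 1.81 and 0.78). VGLL4 fell in the SK-N-BE(2) knockdown (-0.37; -0.76 against the other control), as did MAP4K4 (-0.43; -0.55). DCHS1 was called lower there against its own control (-0.53) but not against the other (-0.09). WWC1 (0.53; 0.30 against the other control) and STK4, which is MST1 (0.38; 0.25), rose. In the SH-SY5Y knockdown STK4 fell (-0.29; -0.34 against the other control), while WWC1 was called lower against its own control (-0.21) and was at 0.11, not called, against the other. The lower genes of the SK-N-BE(2) overexpression were led by TAOK1, AMOTL1 and FAT4 (-0.42, -0.42 and -0.41). Against the other control TAOK1 was called again (-0.47), and AMOTL1 (-0.20) and FAT4 (0.14) were not. In the SH-SY5Y overexpression AMOT fell by 0.67 (-1.59 against the other control). FRMD6 was called higher against its own control (0.34) and lower against the other (-1.26). LATS2 was below the level for testing.

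A list of SRF, its co-factors MRTFA and MRTFB, and genes of the actin cytoskeleton had 14 tested members. In SK-N-BE(2) 11 were higher and 0 lower with knockdown, SRF and MRTFA among the 11, where 27.4% of all genes were called higher. Against the other control the counts there were 10 and 1 (47.7% of all genes called). SRF averaged 11.8 FPKM in that knockdown, above its own control (8.70) and the other (9.97). MRTFA averaged 3.25 FPKM, above its own control (2.67) but not above the other (3.42). In SH-SY5Y 9 were higher and 1 lower, with SRF, MRTFA and MRTFB not among them, where 26.3% of all genes were called higher. Against the other control the counts were 11 and 0 (58.2% of all genes called). The leaders were CNN2 (3.02), ACTA2 (1.73) and ZYX (1.56) in SK-N-BE(2), and ZYX (1.71), TPM1 (1.70) and TPM2 (1.27) in SH-SY5Y, where CNN2 fell by 0.79. Against the other control CNN2 was 0.48 higher there. The overexpression counts were 3 and 4 in SK-N-BE(2) (29.7% of all genes called) and 3 and 1 in SH-SY5Y (32.6%). In SK-N-BE(2) they were 1 and 2 without overexpression replicate 2, and 1 and 3 without replicate 3. In SH-SY5Y they were 0 and 12 against the other control (55.4%).

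AP-1 subunits, frequent partners of TEAD at enhancers, differed between the 2 knockdowns. All 7 rose in SK-N-BE(2), led by FOSL1 (4.02), FOS (3.31) and JUN (2.32). Their median there was 1.5 against -0.01 over all genes, of which 27.4% were called higher. FOS was at 15.1 to 16.4 FPKM there against 0.604 to 0.873 in its control, and JUN at 60.03 to 64.0 against 11.3 to 12.2 FPKM. In SH-SY5Y 2 were higher and 2 lower, where 56% of all genes were called: FOSL2 and JUNB rose (0.65 and 0.44), and JUN and JUND fell (-0.60 and -0.54). Against the other control 4 were higher in SH-SY5Y, FOSL2 (1.65), FOSL1 (1.25), JUNB (0.87) and FOS (0.52), and JUN and JUND were again lower (-0.34 and -0.57). That control called 58.2% of all genes. The knockdown change was higher in SK-N-BE(2) than in SH-SY5Y for all 7 (29.5% of all genes were called higher in that comparison). With the other controls it was higher for 6 and lower for FOSL2 (-2.51). Against the other control, FOSL2 was lower in the SK-N-BE(2) knockdown (-0.85) and the other 6 stayed higher (47.7% of all genes called).

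The genes whose pattern was most like that of YAP1, by Pearson r of log2(FPKM + 1) over the 24 libraries after each line's mean was taken off, were PDE5A (0.970), GPC3 (0.964), ARHGAP6 (0.963), DDX60 (0.962), PIEZO1 (0.961) and SCN9A (0.958). For CYR61 they included ACTA2 (0.964) and NAMPT (0.955), and for CTGF they included ANKRD1 (0.879) and ACTA2 (0.847). These values are descriptions: the libraries share the same 8 groups, so few patterns are possible.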

How the data were processed

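Per the labels, total RNA of 24 puromycin-selected cultures was made into strand-specific TruSeq libraries and read on a NovaSeq instrument. The authors deposited 1 table of FPKM per gene; the submitters' processing notes name FastQC 0.11.2, STAR (no version), StringTie 1.3.1c and hg38. No source used here gives the counting settings, the annotation release or the read depth; precision rests on the spread over 3 libraries a group.

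Genes that reached 1 FPKM in 3 or more libraries (15903 of 60564) were fitted as log2(FPKM + 1) in R 4.3.3 with limma 3.58.1 (trend, robust moderation; 8 groups, 16 residual degrees of freedom), which understates changes of low genes. A call is a Benjamini-Hochberg adjusted p under 0.05 over all tested genes, two-sided. Comparisons were each construct with its own control, then the 2 lines, the 2 empty vectors of a line, and the lines' controls. "The other control" is the line's other empty vector; comparisons in a line that use the same control group share its libraries. The fit was tested on simulated data. Gene positions are from GENCODE release 29.

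The 10 genes and all lists were chosen with earlier results of these data known. Named besides them were up to 3 called genes per direction, list and construct comparison, by size of change; the 6 genes most correlated with YAP1 and 3 each for CYR61 and CTGF; and, chosen after their values were seen, CD37 and CD68. Some named by the rule are not reported here. Alternatives were a pseudocount of 0.1, no filter (43264 genes tested), a minimum mean of 5 FPKM (7219 tested), fixed-sum (TPM) or median-of-ratios scaling, only the groups compared, a replicate block, no trend or robust moderation, the other control, and each library left out.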

Additional observations from a re-analysis of the deposited data

Results flagged for a closer look

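These results were picked out because the effect of a construct differed between the 2 lines by a limma test of the difference itself, given as SK-N-BE(2) minus SH-SY5Y in log2(FPKM + 1) with each construct's own control. With knockdown the differences were -2.46 for YAP1, 0.89 for WWTR1, -2.26 for TEAD2, 1.28 for TEAD4, 2.07 for CYR61, 0.64 for CTGF and 0.96 for AMOTL2. Those of YAP1, TEAD2, TEAD4 and AMOTL2 were called with the same sign when the other controls were used (-2.62, -2.56, 0.99 and 0.79). WWTR1, CYR61 and CTGF turned sign (-0.32, -0.22 and -0.12). With overexpression the differences were -0.47 for YAP1, -0.27 for TEAD2, 0.99 for TEAD3, -0.83 for CYR61 and 0.42 for AMOTL2. Those of YAP1, TEAD3 and AMOTL2 were called with the same sign with the other controls (-0.31, 1.19 and 0.59), while TEAD2 (0.03) and CYR61 (1.46) turned. The call on TEAD2 was lost in 9 of 12 fits without 1 library. NDUFS6 differed between the lines in the same comparisons, by -1.05 with knockdown and by -3.73 with overexpression, and its part in these differences was not tested.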

How the results depend on the processing

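The choice of empty vector changed the most results: of 60 changes of the 10 genes, 21 turned sign with the line's other control, 16 of them called with at least 1 of the 2 controls. Of the others, 29 kept direction and call, 6 gained a call and 4 lost it. The 16 values were, for the SH-SY5Y knockdown, WWTR1 0.73, TEAD3 0.043, CYR61 2.38 and CTGF 0.57; for SK-N-BE(2) overexpression, WWTR1 0.10; for SH-SY5Y overexpression, YAP1 -0.91, TEAD2 -0.18, CYR61 -1.56 and CTGF -0.33; for knockdown between lines, WWTR1 -0.32, CYR61 -0.22 and CTGF -0.12; and for overexpression between lines, WWTR1 1.09, TEAD2 0.035, CYR61 1.46 and AJUBA 0.76. The 5 that were called with neither control were TEAD3 (-0.14), CYR61 (-0.10) and CTGF (0.02) in SK-N-BE(2) overexpression, TEAD3 (-0.05) for knockdown and CTGF (0.35) for overexpression between lines. No other setting turned a change that was called in either fit. The number of the 10 genes called moved by over 1.5 times in SK-N-BE(2) overexpression (5) to 3 with no filter, 3 with median-of-ratios scaling, 3 with the other control, 2 with only the groups compared, and 2 to 5 without 1 library; in SH-SY5Y overexpression (4) to 8 with the other control and 2 to 3 without 1 library; and between the controls of SK-N-BE(2) (4) to 2 with no filter and 2 to 4 without 1 library. Without 1 library it was 9, 7, 7, 8 and 9 throughout in the SK-N-BE(2) and SH-SY5Y knockdowns, knockdown between lines, controls of SH-SY5Y and lines in controls, and 4 to 5 for overexpression between lines. A mean of at least 5 FPKM left 4 of the 10 genes, with 3, 2, 1, 2, 2, 3, 1, 3 and 4 called in the SK-N-BE(2) and SH-SY5Y knockdowns, the SK-N-BE(2) and SH-SY5Y overexpressions, knockdown and overexpression between lines, the controls of SK-N-BE(2) and of SH-SY5Y, and the lines' controls. With the replicate block all 90 results kept their call (9, 7, 5, 4, 7, 5, 4, 8 and 9 genes called in that order), and same-numbered libraries did not deviate together in every pair of any comparison (highest correlation 0.37). Over all genes, SK-N-BE(2) overexpression called 4716, but 966 with only the groups compared, and SH-SY5Y overexpression 5186, but 8810 with the other control. Fixed-sum scaling put the median of all genes at -0.105 in the SH-SY5Y knockdown, -0.11 between the controls of SK-N-BE(2), 0.201 for knockdown between lines and -0.118 between the lines' controls. The share of calls that were higher moved under it from 49.2 to 60.8% and 47 to 35.4% in the SK-N-BE(2) and SH-SY5Y knockdowns, 43.4 to 32.7% in SK-N-BE(2) overexpression (53.8% by median of ratios), 45.1 to 25.1% in the controls of SK-N-BE(2), 52.8 to 69.8% for knockdown and 49.8 to 38.3% for overexpression between lines. The cause of these shifts was not tested. Read depth is unknown, so low genes such as CTGF have no counting limit.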
